A study of Homo sapiens with 12 samples.

Results

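The genes described here are the ZNF genes expressed in HCT116, an established cell line from a human colorectal carcinoma. They were chosen by measured level: every row named by a single ZNF-numbered gene whose FPKM (fragments per kilobase of transcript, scaled to the mapped fragments of the library) averaged at least 5 over the 6 libraries without doxorubicin. They are 98 of the 316 ZNF-numbered symbols with a row of their own, among 57908 loci in all. Another 125 rows joined a ZNF gene with a neighbouring gene in a single value and were not used. The levels without doxorubicin chose the genes and are a description. ZNF641, ZNF517 and ZNF235 lay just below the limit, at 4.83, 4.93 and 4.999 FPKM, and ZNF213, ZNF211 and ZNF440 just above, at 5.02, 5.08 and 5.08 FPKM.

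Messenger RNA was sequenced in 6 groups of 2 libraries each. Cells transfected with a control plasmid (GFP in the sample titles, an empty vector in the design text, labelled WT), with NSE4A-flag (NSE4 overexpression) or with SMC5-flag (SMC5 overexpression) were given 1000 nM doxorubicin for 24 hours, or PBS without drug as the reference. Doxorubicin is an anthracycline that traps topoisomerase II on DNA and causes double-strand breaks, and NSE4 and SMC5 are subunits of the SMC5/6 complex, a ring-shaped ATPase of chromosome maintenance. All groups are plasmid-transfected populations of 1 cell line, and the labels give no cloning or selection.

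The 2 columns of SMC5 cells given doxorubicin stood apart. They correlated at a Pearson r of 0.99943 across loci and held 1091 identical values above 0, against an r of 0.98682 to 0.98805 and 0 such values in the other 5 pairs, so they were averaged and counted as 1 sample, which leaves 11 samples. The plasmid genes followed the labels. NSMCE4A, the gene of NSE4, lay between 4069 and 6287 FPKM in NSE4 cells, against 68.7 to 89.4 FPKM in GFP cells. SMC5 lay between 811 and 979 FPKM in SMC5 cells, against 7.02 to 33.5 FPKM in GFP cells. The epithelial genes EPCAM (123 to 146 FPKM), KRT8 (1205 to 1730 FPKM) and CDH1 (24.2 to 30.1 FPKM) were high in every sample. CDX2 was low, at 2.997 to 6.98 FPKM, and VIL1 lay at 1.20 to 2.43 FPKM with doxorubicin, against 0.00654 to 0.141 FPKM with PBS. The leukocyte gene PTPRC stayed at or under 0.0378 FPKM and the fibroblast gene COL1A2 at or under 0.33 FPKM, while COL1A1 lay between 15.6 and 27.0 FPKM.

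ZNF-numbered genes mostly encode C2H2 zinc finger proteins, in which strings of small zinc-binding modules read DNA sequence, and they form the largest family of transcription factors in human cells. Many carry a KRAB domain in front of the fingers. KRAB binds the scaffold protein TRIM28 (KAP1), which brings in the histone methyltransferase SETDB1, HP1 proteins and histone deacetylases, and this machinery is best known for silencing transposable elements. The KRAB genes sit largely in tandem clusters on chromosome 19. Family members without KRAB include general transcription factors, DNA repair proteins, and proteins that act on ribosomes or RNA. The number in a ZNF name is only a serial number: some carry few or no C2H2 fingers.

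In the GENCODE 29 proteins of the 98 genes, 38 matched the KRAB A-box pattern, which can miss divergent boxes, and 32 genes lie on chromosome 19. ZNF142 and ZNF646 had the most finger matches, 31 each. ZNF185, a LIM-domain protein of the actin cytoskeleton, and ZNF330, a nucleolar protein, had no C2H2 match. Reads that match 2 genes are a concern in a family made by duplication. A word of 50 bases shared with another gene's transcript was absent from 57 of the 98 genes, and shared words made up more than 10% of the transcript in 4 genes: ZNF322, ZNF600, ZNF562 and ZNF611. In ZNF600 the share was 18.2%, most often with ZNF611. It was 6.70% in ZNF561, most often with ZNF562, 6.35% in ZNF440, most often with ZNF69, and at most 4.24% in the other genes. The sources used here do not say how such reads were assigned, so values of all genes with shared words are uncertain to that extent.

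The promoters of genes among the largest changes are shown because they are the DNA nearest to the start of the transcripts whose levels are compared here. RefSeq promoter windows of build GRCh38.p14 were matched for 83 of the 98 genes, and the 250 bases before the annotated start are given here, 5′ to 3′ on the gene's strand. Capitals mark GGGCGG, the GC box read by SP1-type zinc fingers, and CCAAT, the box read by NF-Y, each on either strand (CCGCCC and ATTGG on the other). The first 3 genes rose with doxorubicin: ZNF440 at chr19:11814023-11814272 (plus strand), ZNF101 at chr19:19668589-19668838 (plus strand) and ZNF333 at chr19:14689798-14690047 (plus strand). ZNF600 and ZNF524, which rose more than ZNF333, were not among the matched windows. The other 3 fell: ZNF292 at chr6:87155315-87155564 (plus strand), ZNF496 at chr1:247331868-247332117 (minus strand) and ZNF444 at chr19:56141037-56141286 (plus strand).
ZNF440: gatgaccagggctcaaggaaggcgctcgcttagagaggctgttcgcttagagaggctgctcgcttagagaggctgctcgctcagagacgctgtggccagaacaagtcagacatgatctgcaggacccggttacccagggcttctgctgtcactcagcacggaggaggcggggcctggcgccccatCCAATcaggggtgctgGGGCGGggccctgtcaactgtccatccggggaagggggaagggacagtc
ZNF101: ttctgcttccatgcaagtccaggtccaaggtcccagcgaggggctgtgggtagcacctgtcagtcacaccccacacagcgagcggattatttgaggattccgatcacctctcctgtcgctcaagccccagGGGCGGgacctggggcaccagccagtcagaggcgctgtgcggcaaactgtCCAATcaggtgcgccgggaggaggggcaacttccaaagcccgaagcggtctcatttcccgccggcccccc
ZNF333: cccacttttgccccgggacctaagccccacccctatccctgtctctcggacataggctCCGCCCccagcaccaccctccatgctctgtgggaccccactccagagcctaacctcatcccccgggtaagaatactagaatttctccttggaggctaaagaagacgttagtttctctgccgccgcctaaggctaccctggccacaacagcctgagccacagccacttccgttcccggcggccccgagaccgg
ZNF292: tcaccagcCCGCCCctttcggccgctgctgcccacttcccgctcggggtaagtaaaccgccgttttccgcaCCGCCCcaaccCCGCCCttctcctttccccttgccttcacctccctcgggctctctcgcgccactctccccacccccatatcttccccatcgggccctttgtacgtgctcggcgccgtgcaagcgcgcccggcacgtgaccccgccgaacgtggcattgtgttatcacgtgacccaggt
ZNF496: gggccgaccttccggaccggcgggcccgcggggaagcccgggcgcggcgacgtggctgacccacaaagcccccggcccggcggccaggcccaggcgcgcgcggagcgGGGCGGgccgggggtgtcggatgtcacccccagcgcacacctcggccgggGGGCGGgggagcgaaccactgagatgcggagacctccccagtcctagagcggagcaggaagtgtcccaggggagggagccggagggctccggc
ZNF444: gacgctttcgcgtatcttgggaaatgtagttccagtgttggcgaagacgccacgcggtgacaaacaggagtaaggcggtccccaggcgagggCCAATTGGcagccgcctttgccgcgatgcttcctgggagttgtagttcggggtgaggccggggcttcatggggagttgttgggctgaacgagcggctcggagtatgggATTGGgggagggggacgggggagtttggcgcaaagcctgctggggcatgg

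ZNF440 and ZNF101 each held 1 GC box and 1 CCAAT, ZNF333 held 1 GC box, ZNF292 held 3 GC boxes, ZNF496 held 2, and ZNF444 held 3 CCAAT matches, of which a pair overlaps on opposite strands. Over the matched genes the windows were GC-rich, with a median of 63.6% GC against 58% over 35116 RefSeq promoters. GGGCGG was present in 66.3% of the 83 windows against 42.6% of all promoters. By direction it was in 10 of 22 windows of genes that rose, 12 of 18 of genes that fell and 33 of 43 of genes that were not called. CCAAT was in 34.9% against 32% of all promoters. The ETS-type motif CCGGAAGT was in 14.5% against 3.42%, and the TATA motif TATAAA in 1.2% against 10.7%. The decamer known as the p53 half-site was in 3 of 83 windows (3.61%), 1 of them among genes that rose, against 5.57% of all promoters, and the ZNF440 window held none. The windows of all promoters were not limited to expressed genes or to 1 window per gene, as those of the ZNF genes were. The 2 sets are therefore unlike. These are letter matches in a fixed window, given as a description.

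Most of these genes were expressed at modest levels. The mean without doxorubicin spanned 5.02 to 68.1 FPKM with a median of 9.39 FPKM, 46 genes reached 10 FPKM and 14 reached 20 FPKM. No value was 0, and the lowest single value was 1.77 FPKM. The 5 highest genes were ZNF593, ZNF706, ZNF146, ZNF692 and ZNF330, and the doxorubicin comparison split them. ZNF593, whose yeast counterpart Bud20 helps export the large ribosomal subunit, had the highest mean in every group: 86.5 to 108 FPKM (median 98.4) with doxorubicin, against 62.5 to 74.8 FPKM (median 67.9) with PBS. Its samples did not overlap. ZNF706, a small protein with a single finger match, overlapped, at 62.97 to 70.9 FPKM (median 67.6) with doxorubicin, against 55.4 to 78.3 FPKM (median 60.1) with PBS. ZNF146, a protein made almost wholly of fingers, had 29.2 to 35.7 FPKM (median 30.1) with doxorubicin, against 49.8 to 62.5 FPKM (median 58.03) with PBS. ZNF692 had 21.9 to 28.5 FPKM (median 27.7) with doxorubicin, against 34.7 to 40.8 FPKM (median 39.1) with PBS, and ZNF330 had 30.99 to 33.5 FPKM (median 32.6) with doxorubicin, against 28.8 to 37.6 FPKM (median 34.6) with PBS. ZNF593 rose, ZNF146 and ZNF692 fell, and the other 2 were not called.

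Whether doxorubicin changed these genes was tested with limma on log2(FPKM + 1) over all 15833 loci that passed a filter on low values, as doxorubicin minus PBS averaged over GFP, NSE4 and SMC5 cells; all 98 genes passed the filter, and "rose", "fell" and "called" mean a Benjamini-Hochberg adjusted p under 0.05. The PBS values that chose the genes are also the reference side of this difference. Of the 98 genes, 25 rose, 20 fell and 53 were not called. Among all loci 28.0% rose and 23.6% fell (51.6% in all), and among the 9713 loci with the same minimum mean 27.0% rose and 30.9% fell. In percent, 25.5% of the ZNF genes rose and 20.4% fell. The median difference was 0.10 (log2) for the ZNF genes, 0.03 for all loci and −0.03 for loci with the same mean. Their summed level was 1270 to 1358 FPKM with doxorubicin, against 1194 to 1306 FPKM with PBS, and these ranges overlapped. Replicate 1 lay below replicate 2 in each group of 2 samples. Among libraries numbered 1 the sum was 1270 (GFP) and 1275 FPKM (NSE4) with doxorubicin, against 1194 (GFP), 1213 (NSE4) and 1194 FPKM (SMC5) with PBS. Among libraries numbered 2 it was 1358 (GFP) and 1344 FPKM (NSE4) with doxorubicin, against 1299.7 (GFP), 1306 (NSE4) and 1257 FPKM (SMC5) with PBS. Within each number the conditions did not overlap on this FPKM scale. Whether a number marks a shared batch is not stated in the labels. The sums were not rescaled, and the factors of median-of-ratios scaling, by which values are divided, were also higher with doxorubicin. They were 0.986 and 0.987 against 0.969 to 0.977 with PBS in libraries numbered 1, and 1.06 and 1.07 against 1.01 to 1.02 in libraries numbered 2. Divided by these factors, the sums would overlap between conditions in libraries numbered 2, while those numbered 1 would stay apart. Neither was tested. In bulk RNA, fewer cells with a transcript and less transcript per cell cannot be told apart.

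The choice of genes by PBS level bears on the count of rises. Taken by their mean over doxorubicin samples instead, 112 ZNF genes qualified, 93 of them shared, and 41 rose while 17 fell. A choice by doxorubicin level takes in genes that rose and drops genes that fell, so part of this shift is built in. The same choice was not made over all loci. By the mean over all samples 100 qualified, and 30 rose while 18 fell. Among the 46 genes of at least 10 FPKM, 11 rose and 13 fell. ZNF rows below the limit that could be tested numbered 120, and of these 42 rose (35%) and 11 fell (9.17%), with a median difference of 0.15 (log2). Over all loci 28.0% rose and 23.6% fell, and falls were more frequent (30.9%) among loci with the same minimum mean. Loci below that mean therefore fell less often in general. In counts, 4432 of the 15833 loci rose and 3740 fell. Of these, 2622 rises and 3000 falls lay at or above that mean. The loci below it hold the rest, so rises outnumbered falls there too, as in the lower ZNF rows. Whether the shares differ was not tested, and the counts of the lower ZNF rows are a description. The other zinc finger symbols ZBTB, ZSCAN, ZKSCAN and ZFP had 25 genes above the limit, of which 5 rose and 5 fell.

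**Figure D1:**
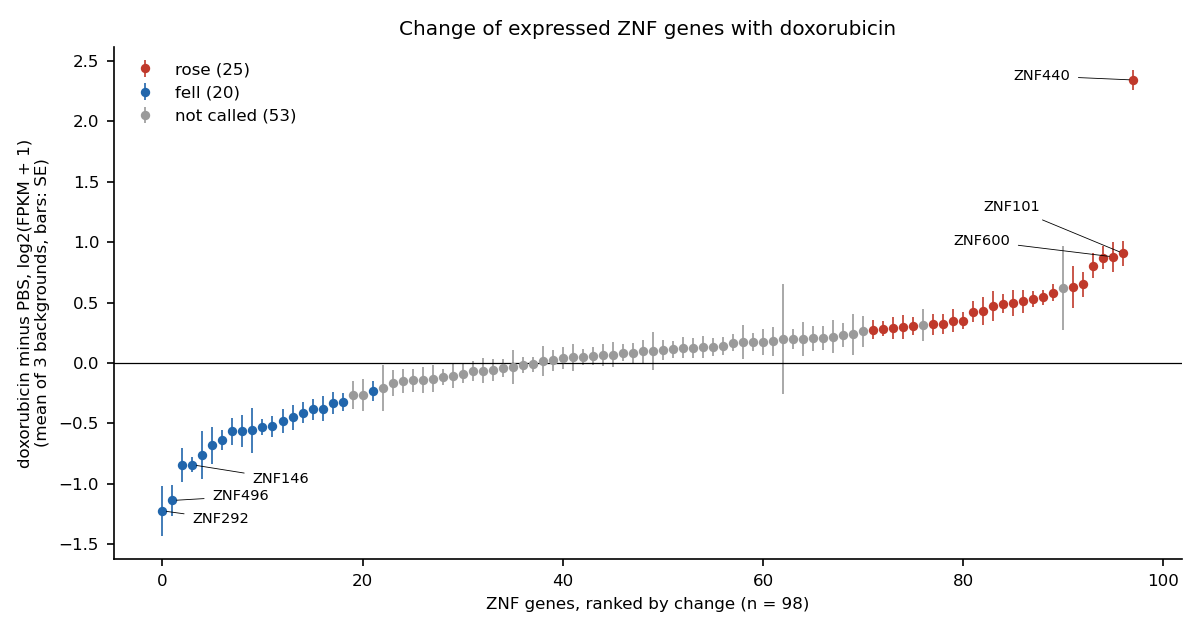
Difference between doxorubicin and PBS samples for each of the 98 ZNF genes, on the log2(FPKM + 1) scale, ranked from the largest fall to the largest rise, with bars for the standard error. The 25 genes that rose and the 20 that fell are coloured, and ZNF440, at 2.34, stands well above the next gene, ZNF101, at 0.91.

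Sample by sample, all 5 doxorubicin values lay above all 6 PBS values in 18 genes and below them in 16, and 64 genes overlapped. Among all loci the same held for 22.0% above and 18.6% below, and among loci with the same mean for 21.8% and 25.2%. Most differences were small. On the log2(FPKM + 1) scale ZNF440, ZNF292 and ZNF496 passed 2-fold, and as a ratio of mean FPKM ZNF101 passed it too, at 2.07. The median standard error of a difference was 0.094 (log2).

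ZNF440, a KRAB gene of chromosome 19 with 11 finger matches, showed the largest change of the 98 genes. ZNF440 had 26.4 and 32.6 FPKM (GFP cells), 31.1 and 33.2 FPKM (NSE4 cells) and 27.8 FPKM (SMC5 cells) with doxorubicin, against 5.23 and 5.13 FPKM (GFP), 4.03 and 4.81 FPKM (NSE4) and 5.51 and 5.77 FPKM (SMC5) with PBS. Every doxorubicin sample was more than 4 times any PBS sample, and the 3 transfections looked alike. The mean was 30.2 ± 3.01 FPKM with doxorubicin and 5.08 ± 0.609 FPKM with PBS (SD, n = 5 and 6 samples), a ratio of 5.95, and the difference was 2.34 ± 0.0803 (log2, SE; limma adjusted p = 8.24e-07). ZNF440 was among the lowest of the 98 genes in PBS samples and among the higher ones with doxorubicin.

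The ZNF genes nearest to ZNF440 in the RefSeq gene order of chromosome 19 were lower than ZNF440 in both conditions, and far lower with doxorubicin. No value was available for ZNF700, another neighbour. ZNF441 averaged 1.52 FPKM with doxorubicin and 0.531 FPKM with PBS (difference 0.74, adjusted p = 5.39e-04). ZNF823 averaged 4.50 FPKM with doxorubicin and 3.003 FPKM with PBS (difference 0.45, adjusted p = 0.00315). Both rose, with differences well under that of ZNF440 on the log2(FPKM + 1) scale. That scale understates changes of low genes such as ZNF441. ZNF491, ZNF439 and ZNF69 averaged at most 0.105 FPKM in either condition. These neighbours are not among the 98 and were picked for their position.

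Of the next 9 rises with no overlap, 5 were in genes with a KRAB match. ZNF101 had 9.69 and 9.86 FPKM (GFP cells), 13.99 and 9.85 FPKM (NSE4 cells) and 9.899 FPKM (SMC5 cells) with doxorubicin, against 4.47 and 4.62 FPKM (GFP), 4.06 and 5.298 FPKM (NSE4) and 6.13 and 6.37 FPKM (SMC5) with PBS. Its values were higher with doxorubicin in all 3 transfections, with a difference of 0.91 ± 0.105 (adjusted p = 1.92e-04). ZNF600 had 12.9 and 9.19 FPKM (GFP cells), 12.4 and 14.3 FPKM (NSE4 cells) and 14.5 FPKM (SMC5 cells) with doxorubicin, against 7.17 and 6.64 FPKM (GFP), 7.85 and 5.495 FPKM (NSE4) and 6.75 and 5.52 FPKM (SMC5) with PBS. The doxorubicin samples were again all higher (difference 0.88 ± 0.123, adjusted p = 5.20e-04), with the reservation about reads shared with ZNF611, which was not called (difference 0.24 ± 0.170, adjusted p = 0.271). ZNF333 lay at 9.16 to 11.8 FPKM (median 11.3) with doxorubicin, against 4.63 to 6.29 FPKM (median 5.57) with PBS, a difference of 0.81 (adjusted p = 3.76e-04). ZNF266 and ZNF337, also KRAB genes, differed by 0.58 and 0.54 (adjusted p = 2.46e-04 and 2.22e-04).

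Rises without a KRAB match included a telomere protein and ribosome factors. ZNF524, which has been described as binding the telomere repeat, had the next largest difference after ZNF600. ZNF524 had 26.4 and 28.2 FPKM (GFP cells), 27.1 and 26.01 FPKM (NSE4 cells) and 30.2 FPKM (SMC5 cells) with doxorubicin, against 13.3 and 15.8 FPKM (GFP), 13.6 and 14.9 FPKM (NSE4) and 13.5 and 18.5 FPKM (SMC5) with PBS. The difference was 0.87 ± 0.0939 (adjusted p = 1.28e-04). ZNF672 lay at 18.1 to 20.9 FPKM (median 19.2) with doxorubicin, against 10.1 to 14.1 FPKM (median 12.2) with PBS, a difference of 0.65 (adjusted p = 0.00107). The remaining pair of the 10 largest rises, ZNF593 and ZNF622, belongs to the ribosome group below.

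Of the 10 largest falls, 8 were in genes with no KRAB match. ZNF292 had 7.71 and 10.9 FPKM (GFP cells), 10.05 and 8.33 FPKM (NSE4 cells) and 10.8 FPKM (SMC5 cells) with doxorubicin, against 31.3 and 15.3 FPKM (GFP), 23.1 and 32.9 FPKM (NSE4) and 19.2 and 26.9 FPKM (SMC5) with PBS. All doxorubicin samples of this large, many-fingered gene, known as mutated in neurodevelopmental disorders, were lower, while its PBS samples varied from 15.3 to 32.9 FPKM. The difference was −1.22 ± 0.207 (adjusted p = 0.00141), with the third highest spread between replicates of the 98 genes (SD 0.41, log2). ZNF496 had 4.15 and 6.31 FPKM (GFP cells), 4.76 and 6.55 FPKM (NSE4 cells) and 4.42 FPKM (SMC5 cells) with doxorubicin, against 12.6 and 13.7 FPKM (GFP), 11.8 and 12.6 FPKM (NSE4) and 10.02 and 13.1 FPKM (SMC5) with PBS. This gene, whose protein binds the histone methyltransferase NSD1, was lower in every doxorubicin sample (difference −1.14 ± 0.128, adjusted p = 1.62e-04).

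ZNF146, reported as overexpressed in colorectal and pancreatic tumours, had the smallest adjusted p of the falls. ZNF146 had 30.1 and 29.96 FPKM (GFP cells), 34.3 and 35.7 FPKM (NSE4 cells) and 29.2 FPKM (SMC5 cells) with doxorubicin, against 58.7 and 55.6 FPKM (GFP), 58.7 and 62.5 FPKM (NSE4) and 57.4 and 49.8 FPKM (SMC5) with PBS. The groups stood well apart, the mean was 31.9 ± 2.94 FPKM with doxorubicin and 57.1 ± 4.26 FPKM with PBS (SD, n = 5 and 6 samples), and the difference was −0.84 ± 0.0611 (adjusted p = 1.64e-05). ZNF444 had 8.26 and 11.5 FPKM (GFP cells), 10.4 and 11.1 FPKM (NSE4 cells) and 9.36 FPKM (SMC5 cells) with doxorubicin, against 17.03 and 19.8 FPKM (GFP), 14.8 and 21.01 FPKM (NSE4) and 16.9 and 23.7 FPKM (SMC5) with PBS. The difference of this SCAN-domain gene was −0.84 ± 0.139 (adjusted p = 0.00121).

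The other 6 of the 10 largest falls were smaller. ZNF480, a KRAB gene, had 4.58 to 8.499 FPKM (median 7.13) with doxorubicin, against 8.61 to 18.2 FPKM (median 12.6) with PBS (difference −0.76, adjusted p = 0.0119). ZNF264, the only other of the 10 with a KRAB match, had 5.45 to 6.54 FPKM (median 6.34) with doxorubicin, against 8.51 to 9.88 FPKM (median 9.52) with PBS (difference −0.53, adjusted p = 3.69e-04). All 5 doxorubicin samples were below all 6 PBS samples in both. ZNF639 had 10.1 to 12.7 FPKM (median 10.5) with doxorubicin, against 15.3 to 19.4 FPKM (median 17.6) with PBS (difference −0.64, adjusted p = 3.04e-04). ZNF609, ZNF414 and ZNF516 differed by −0.68, −0.56 and −0.56 (adjusted p = 0.00605, 0.00314 and 0.00761).

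**Figure D2:**
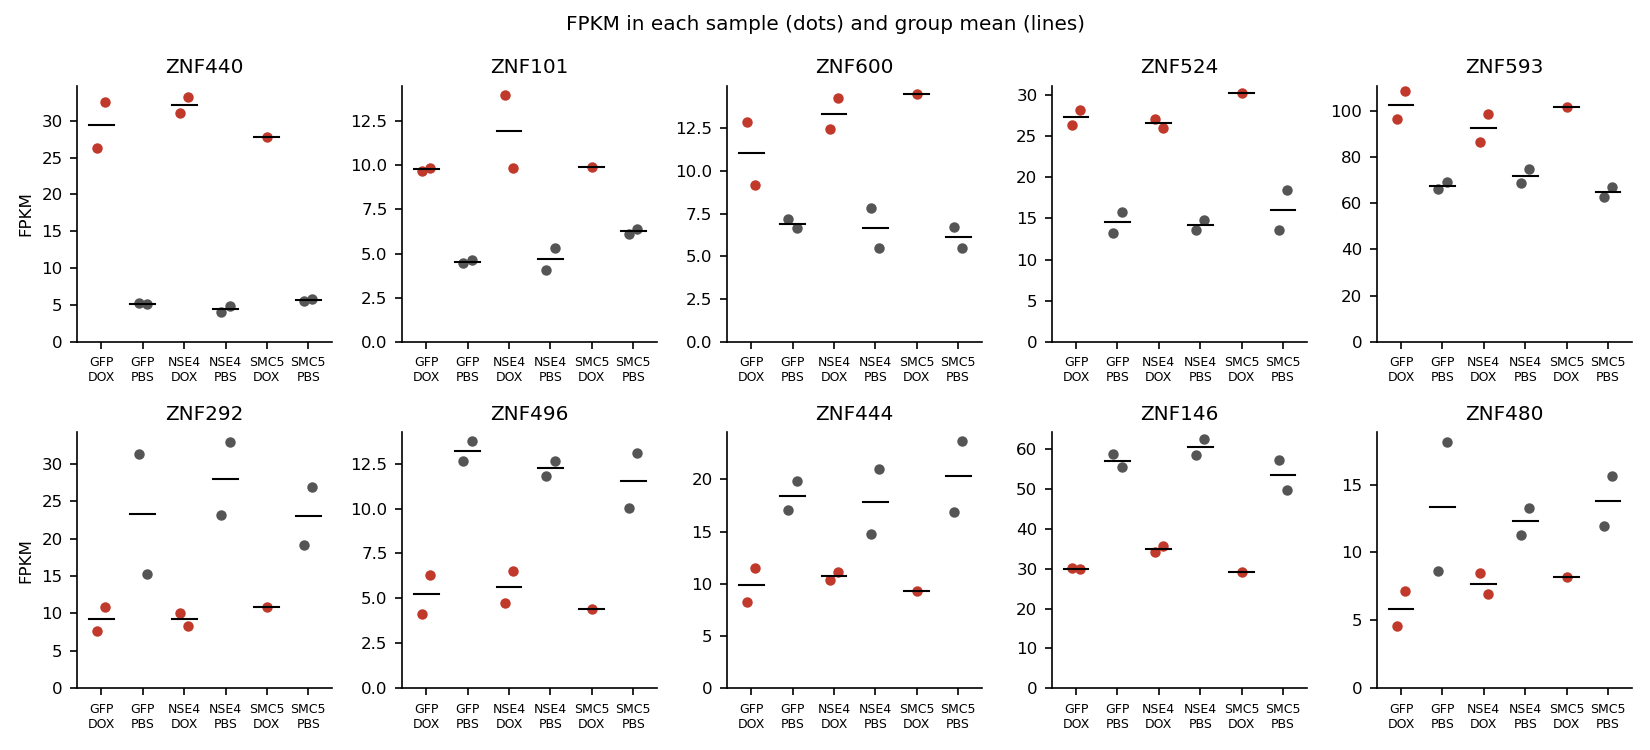
FPKM of 10 ZNF genes in every sample, with doxorubicin (DOX, red) left of PBS (grey) for GFP, NSE4 and SMC5 cells, and lines for group means; SMC5 cells given doxorubicin count as 1 sample. In the upper row each doxorubicin value lies above each PBS value of its gene, and in the lower row below, with the PBS samples of ZNF292 and ZNF480 spread widely.

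The genes with a KRAB match numbered 38, of which 9 rose, 3 fell and 26 were not called. The other 60 had 16 that rose and 17 that fell. The 3 genes with a KRAB match that fell were ZNF480, ZNF264 and ZNF226. The pattern can miss a KRAB box, so the other 60 may hold KRAB genes. The medians of both sets were alike, at 0.09 and 0.10 (log2), and whether the sets differ was not tested. On chromosome 19, 7 of 32 genes rose and 10 fell, and on the other chromosomes 18 of 66 rose and 10 fell. By number of fingers, 15 of 64 genes with 8 or more rose and 12 fell, against 10 and 8 of 34 genes with fewer. Beside these, 28.0% of all loci rose and 23.6% fell, and 27.0% and 30.9% of loci with the same minimum mean. The shares were 23.7% and 7.89% with a KRAB match, and 21.9% and 31.25% on chromosome 19. They were 23.4% and 18.75% with 8 or more fingers, and 29.4% and 23.5% with fewer. Whether any subset differs from all loci was not tested.

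Genes that fell had longer and more AT-rich transcripts than genes that rose. Median transcript length was 5550 bases in the 20 that fell, 3371 bases in the 25 that rose and 3502 bases in the 53 not called. Median GC content was 42.1%, 48.8% and 49.0% in the same order. Across the 98 genes the Spearman rho of the difference was 0.21 with GC content, −0.22 with transcript length and −0.26 with PBS level, as a description of genes that are not independent. Adjusting each sample for GC content left 30 rises and 21 falls.

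**Figure D3:**
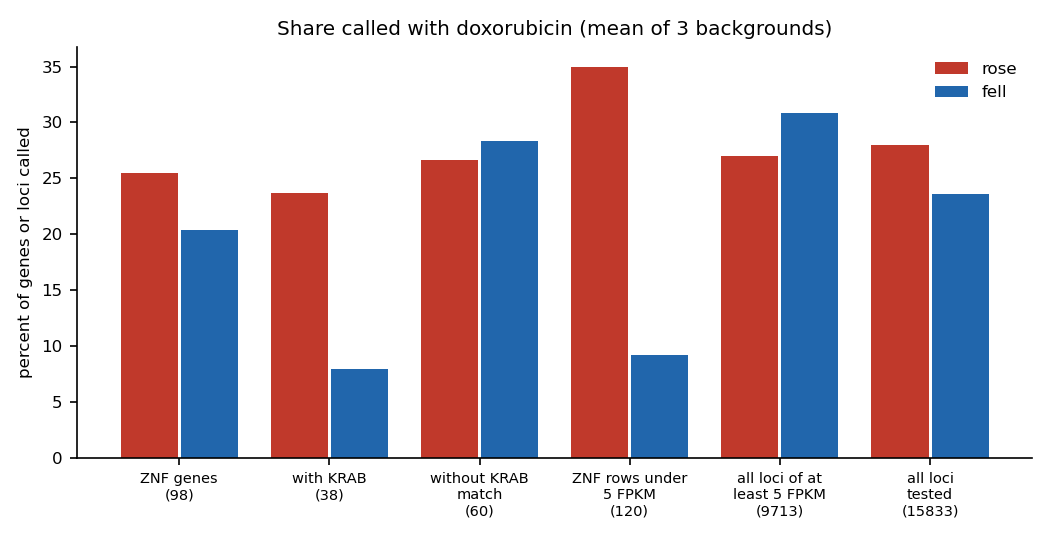
Percent of genes or loci that rose (red) or fell (blue) with doxorubicin, for the 98 ZNF genes, those with and without a KRAB match, ZNF rows under 5 FPKM, all loci of at least 5 FPKM and all loci tested, with the number in brackets. Falls make up 7.89% of the genes with a KRAB match and 28.3% of the ZNF genes without a match, and rises 35% of the lower ZNF rows. Other loci under 5 FPKM are not shown as a set of their own, and among them rises also outnumbered falls.

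Neighbouring ZNF genes formed 13 pairs in which both genes are in the set and adjacent in the RefSeq order of protein-coding genes. Of these pairs 7 had the same sign, 3 were called in opposite directions and 0 in the same direction. The pairs are few, and of the 98 genes 25.5% rose and 20.4% fell. The same counts over other neighbouring loci were not made, so these are given as a description. ZNF672 rose by 0.65 and its neighbour ZNF692 fell by 0.52 (log2). ZNF524 rose by 0.87 and ZNF865 fell by 0.38, at 7.805 to 9.602 FPKM (median 8.36) with doxorubicin, against 9.72 to 12.6 FPKM (median 11.1) with PBS. ZNF561 rose by 0.63 and ZNF121 fell by 0.23, both with overlapping samples and the first with the reservation about reads shared with ZNF562. The labels do not state that the counting used strand, so reads where neighbours overlap cannot be assigned to either.

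Of 9 genes listed for ribosome and RNA roles, 7 were in the set. Of these 7, 4 rose and 0 fell, where 28.0% of all loci rose and 23.6% fell. Besides ZNF593, ZNF622, the counterpart of the yeast 60S maturation factor Rei1, had 26.3 to 31.8 FPKM (median 30.3) with doxorubicin, against 18.1 to 22.8 FPKM (median 20.8) with PBS (difference 0.51, adjusted p = 0.00216). ZNF593 itself averaged 98.2 ± 7.97 FPKM with doxorubicin and 68.1 ± 4.11 FPKM with PBS (difference 0.53 ± 0.0650, adjusted p = 2.62e-04). ZNF598, the ubiquitin ligase that marks collided ribosomes, differed by 0.31 (adjusted p = 0.0106), with 1 or more overlapping samples, at 23.6 to 28.3 FPKM (median 24.9) with doxorubicin, against 19.1 to 23.8 FPKM (median 20.03) with PBS. ZNF106, an RNA-binding protein, differed by 0.35 (adjusted p = 0.00272). ZNF326, of a complex that couples splicing to transcription, had a difference of 0.13, ZNF706 of 0.11 and ZNF330 of −0.07, and these 3 were not called.

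Of 13 genes listed for DNA damage or p53 roles, 9 had a row of their own and 6 were in the set. Of these 6, 3 rose and 0 fell, beside the same 28.0% and 23.6% of all loci. With lists this short, these counts are given as a description. ZNF185, a p53 target in keratinocytes, had 10.5 to 12.7 FPKM (median 12.2) with doxorubicin, against 7.38 to 9.12 FPKM (median 8.36) with PBS (difference 0.49 ± 0.0813, adjusted p = 0.00127). ZNF451, the SUMO ligase that helps TDP2 remove trapped topoisomerase II, had 12.8 to 14.4 FPKM (median 13.2) with doxorubicin, against 9.84 to 12.3 FPKM (median 10.5) with PBS. Its difference was 0.28 (adjusted p = 0.0195), and the call was lost under quantile normalization (adjusted p = 0.0591) and median-of-ratios scaling (0.0599). ZNF346, a double-stranded RNA-binding protein that can activate p53, had overlapping samples, at 5.81 to 7.71 FPKM (median 6.95) with doxorubicin, against 4.04 to 5.91 FPKM (median 5.65) with PBS (difference 0.30, adjusted p = 0.0369). Its call was lost under quantile normalization (0.0504), without a filter (0.0721) and on leaving out GFP replicate 1, NSE4 replicate 1 or 2, SMC5 replicate 1, or, with doxorubicin, GFP replicate 2 or NSE4 replicate 1 or 2 (0.0541 to 0.0859). ZNF335, ZNF668 and ZNF830, the last of these a homologous recombination factor, had differences of 0.07, 0.05 and −0.06 and were not called.

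General transcription and chromatin regulators were divided. Of 17 listed, 11 were in the set: 2 rose, 2 fell and 7 were not called. Among all loci 28.0% rose and 23.6% fell. ZNF143, an activator at many promoters, had 14.00 to 17.4 FPKM (median 16.4) with doxorubicin, against 9.904 to 13.97 FPKM (median 12.3) with PBS (difference 0.32, adjusted p = 0.0122). Its relative ZNF76 had 9.17 to 13.4 FPKM (median 11.7) with doxorubicin, against 12.7 to 15.1 FPKM (median 13.9) with PBS and was not called (difference −0.26, adjusted p = 0.0869). ZNF76 was called as a fall in 6 of 21 alternative settings. ZNF131, a BTB-domain zinc finger protein, differed by 0.28 (adjusted p = 0.00632). ZNF516, a CtBP-associated repressor, and ZNF652 fell, the second by 0.41 (adjusted p = 0.00405). ZNF148, ZNF24 and ZNF644 had differences of −0.26, −0.12 and −0.09, and ZNF281, ZNF217 and ZNF687 of 0.13, 0.13 and 0.17. Of the listed repressors of transposable elements only ZNF317 was in the set, and it was not called (difference 0.06, adjusted p = 0.552).

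Among the co-repressors that KRAB proteins work through, 11 of 20 listed genes had a row of their own and were tested. Of these 2 rose and 4 fell, a share called near the 51.6% of all loci. TRIM28 was high and not called, at 185 to 237 FPKM with doxorubicin, against 170 to 232 FPKM with PBS (difference 0.01). The HP1 genes CBX1 and CBX3 fell by 0.65 and 0.37 (log2; adjusted p = 5.31e-04 and 0.00105). CBX1 lay at 38.7 to 50.4 FPKM with doxorubicin, against 64.7 to 77.6 FPKM with PBS. The deacetylases HDAC1 and HDAC2 fell by 0.31 and 0.19. MORC2 and CHD3, both chromatin ATPases, rose by 0.56 and 0.37. The histone methyltransferase SUV39H1, SMARCAD1, ATF7IP and FAM208A were not called, with differences of 0.34, −0.22, −0.26 and 0.04.

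Within single transfections, where each difference rests on 3 or 4 samples, fewer genes were called. In GFP cells given doxorubicin 13 ZNF genes rose and 12 fell relative to PBS, where 17.0% of all loci rose and 14.1% fell. In NSE4 cells 16 rose and 9 fell, where 16.3% and 13.9% of all loci did. In SMC5 cells, with 1 doxorubicin sample, 7 rose and 6 fell, where 11% and 9.87% of all loci did. These counts depend on single libraries. In GFP cells 6 rose without GFP replicate 1 and 8 without replicate 1 or 2 of GFP cells given doxorubicin. Falls in GFP cells numbered 5 and 4 without GFP replicate 1 and 2, and 4 and 7 without replicate 1 and 2 of GFP cells given doxorubicin. In NSE4 cells 10 rose without NSE4 replicate 1, and 7 rose and 5 fell without replicate 2 of NSE4 cells given doxorubicin. In SMC5 cells 3 rose and 3 fell without SMC5 replicate 1, and 3 fell without SMC5 replicate 2. With replicate 1 of SMC5 cells given doxorubicin left out, 12 rose.

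The 3 transfections were then compared gene by gene. The sign was the same in all 3 for 70 genes, 45 higher and 25 lower with doxorubicin, and for 44 of the 45 genes called in the average, with ZNF226 the exception. The average is made of these same 3 differences, so like signs among its called genes are largely built in. The gene-by-gene counts were not made over all loci and are given as a description. ZNF12, called as a rise in the average, differed by 0.63 in GFP cells, 0.59 in NSE4 cells and 0.05 in SMC5 cells. In all 3 transfections 6 genes rose: ZNF593, ZNF524, ZNF672, ZNF337, ZNF266 and ZNF440. The 3 that fell in all 3 were ZNF146, ZNF639 and ZNF496. ZNF440 differed by 2.29 in GFP cells, 2.62 in NSE4 cells and 2.12 in SMC5 cells. ZNF146 differed by −0.90, −0.77 and −0.85 in the same order. No gene was called in opposite directions (0 of 98). Across the 98 genes Pearson's r was 0.869 between NSE4 and GFP cells, 0.841 between SMC5 and GFP cells and 0.770 between SMC5 and NSE4 cells. These comparisons share no samples, and the genes are not independent replicates.

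**Figure D4:**
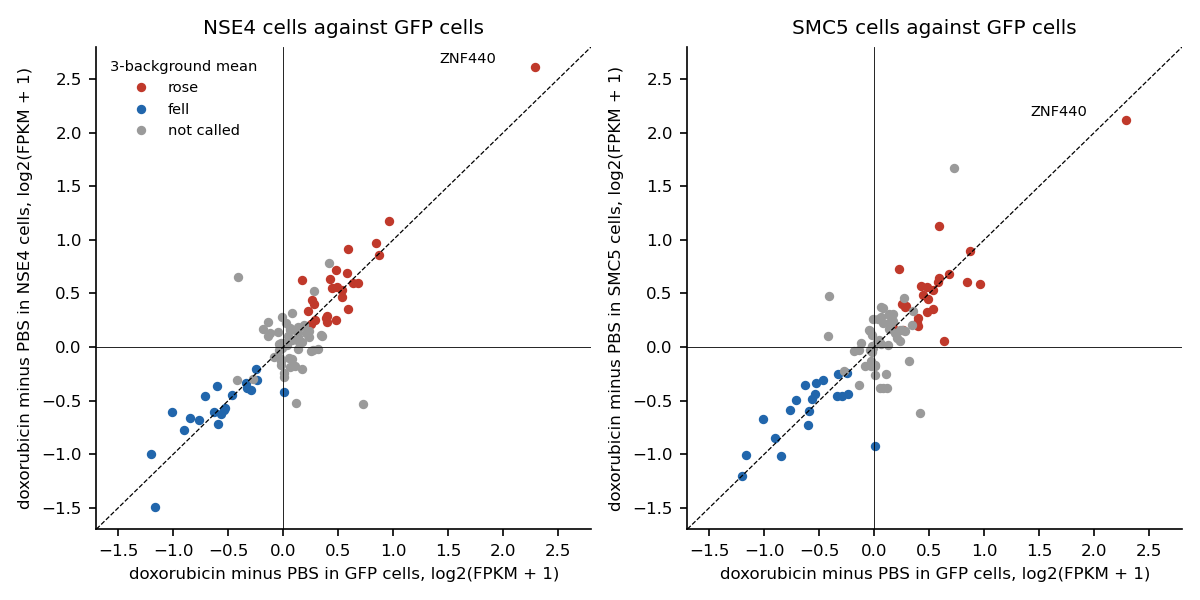
Difference between doxorubicin and PBS samples of each ZNF gene in NSE4 cells (left) and SMC5 cells (right) against that in GFP cells, on the log2(FPKM + 1) scale, with a dashed line of equality and colours for the call over the 3 transfections. ZNF440 is at 2.62 in NSE4, 2.12 in SMC5 and 2.29 in GFP cells, while some called genes lie off the line, such as ZNF226 at −0.42 in NSE4, −0.93 in SMC5 and 0.0026 in GFP cells.

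Overexpression of NSE4 or SMC5 gave no called ZNF gene. With doxorubicin, NSE4 cells against GFP cells had 0 of 98 called by limma and 1 with an unadjusted p under 0.05 (background 0.0568% of loci called). With PBS, NSE4 cells against GFP cells had 0 called and 5 with an unadjusted p under 0.05 (background 0.0442%). SMC5 cells against GFP cells had 0 called with doxorubicin and 2 with an unadjusted p under 0.05 (background 0.0316%), and 0 called with PBS and 4 with an unadjusted p under 0.05 (background 0.0%). The median standard error of these differences was 0.15 to 0.18 (log2), so small differences were not detectable with these samples. The differences with PBS spanned −0.73 to 0.74 for NSE4 and −0.74 to 0.40 for SMC5 cells.

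Whether overexpression altered the doxorubicin difference was tested as an interaction, and again 0 ZNF genes were called for NSE4 (2 with an unadjusted p under 0.05, background 0.0316%) and 0 for SMC5 (3 with an unadjusted p under 0.05, background 0.0189%). The genes with the smallest unadjusted p, chosen after their values were seen, were ZNF226 for SMC5 and ZNF611 for NSE4. ZNF226 had 16.6 and 16.6 FPKM (GFP cells), 15.2 and 16.2 FPKM (NSE4 cells) and 11.1 FPKM (SMC5 cells) with doxorubicin, against 16.9 and 16.2 FPKM (GFP), 25.6 and 17.8 FPKM (NSE4) and 24.5 and 19.96 FPKM (SMC5) with PBS. The difference between the doxorubicin effects in SMC5 and GFP cells was −0.93 (log2; unadjusted p = 0.00738, adjusted p = 1), and it rests on a single doxorubicin sample. ZNF611 had 4.12 and 6.79 FPKM (GFP cells), 9.48 and 5.02 FPKM (NSE4 cells) and 5.99 FPKM (SMC5 cells) with doxorubicin, against 7.32 and 7.47 FPKM (GFP), 4.198 and 3.92 FPKM (NSE4) and 3.64 and 4.44 FPKM (SMC5) with PBS. Here the GFP cells with PBS were the highest PBS samples, and the NSE4 difference of effects was 1.06 (unadjusted p = 0.0242, adjusted p = 1).

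**Figure D5:**
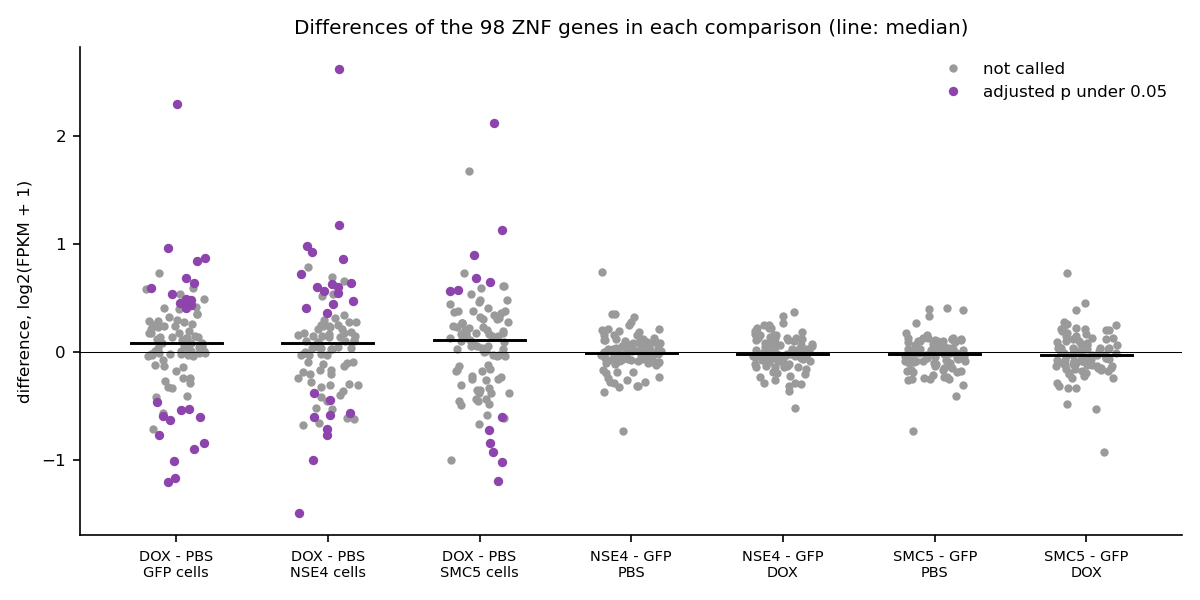
Differences of the 98 ZNF genes on the log2(FPKM + 1) scale in 7 comparisons, with genes called at an adjusted p under 0.05 in purple and a line at the median. Doxorubicin against PBS gives called genes in each of the 3 transfections, and the 4 comparisons of NSE4 or SMC5 with GFP cells give 0.

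Some genes varied widely between replicates. The pooled SD within groups had a median of 0.154 (log2) over the 98 genes and was highest in ZNF778 (0.93) and ZNF710 (0.70), both picked for that spread. ZNF778 had 16.2 and 12.6 FPKM (GFP cells), 26.9 and 7.28 FPKM (NSE4 cells) and 7.005 FPKM (SMC5 cells) with doxorubicin, against 4.94 and 20.99 FPKM (GFP), 4.701 and 12.6 FPKM (NSE4) and 14.1 and 8.97 FPKM (SMC5) with PBS. Replicates differed more than 3-fold in NSE4 cells given doxorubicin and in GFP cells given PBS. ZNF710 had 5.53 and 9.31 FPKM (GFP cells), 5.08 and 4.34 FPKM (NSE4 cells) and 12.6 FPKM (SMC5 cells) with doxorubicin, against 2.04 and 7.09 FPKM (GFP), 4.98 and 10.4 FPKM (NSE4) and 1.77 and 5.61 FPKM (SMC5) with PBS. Its difference of 0.62 ± 0.345 was the largest that was not called (adjusted p = 0.166).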

How the data were processed

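Processed values of 12 libraries of HCT116 messenger RNA were used. Per the submitters' processing notes the authors used TopHat and Cufflinks, and the deposited table holds FPKM for 57908 loci. Versions, genome build, strandedness and multi-read handling are not given in the sources used here. FPKM are scaled to each library's total, and the table holds no read counts, so precision was taken from the spread between samples. Between 23635 and 26185 loci were above 0 in a sample.

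Groups came from the sample titles. The near-identical columns of SMC5 cells given doxorubicin were averaged. Values were analysed as log2(FPKM + 1) with limma 3.58.1 in R 4.3.3, with an intensity trend, 6 groups in 1 fit, 11 samples, 5 residual degrees of freedom, loci of at least 1 FPKM in at least 2 samples (15833) and Benjamini-Hochberg adjustment within each of 10 comparisons. The script was tested on simulated data. This scale understates changes of low genes. The sources do not state that replicate libraries are separate cultures; the p-values therefore measure only spread between these samples, part of which may be technical.

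Genes named with values are the 10 largest called rises and falls whose samples do not overlap, the 5 highest levels, role lists, and any gene said to be chosen for another reason. The set, the lists of roles and co-repressors and the tests were chosen with earlier results of these data known. Gene names, lengths and GC content came from GENCODE 29, gene order and promoters from RefSeq GRCh38.p14. Alternatives were 2 scalings, 2 filters, a pseudocount of 0.1, GC adjustment, a replicate block, the compared groups alone, 12 separate columns, each library left out and 3 other choices of genes. Figures were drawn with matplotlib 3.10.9, and tables made with pandas 2.3.3 and numpy 2.4.6 under Python 3.11.15. Listed co-repressors without a row of their own were not tested, and another listed gene is not reported here.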

Additional observations from a re-analysis of the deposited data

How the results depend on the processing

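The doxorubicin averages over 3 transfections changed least: rises stayed at 22 to 32 and falls at 18 to 22 over all settings that kept the same 98 genes. Other choices of genes moved them, to 41 rises by the mean over doxorubicin samples and to 11 rises and 13 falls at a minimum of 10 FPKM. The choice by doxorubicin mean itself favours rises, here and in the single transfections below, so those counts do not measure stability. No single transfection was as stable. In GFP cells, 8 rose and 5 fell without a filter, 22 rose (median difference 0.17) by the doxorubicin mean and 5 rose at 10 FPKM; leaving out single libraries gave 6 to 17 rises and 4 to 12 falls. In NSE4 cells, 14 fell under quantile normalization, 15 fell with the replicate block and GC adjustment, 28 rose by the doxorubicin mean, and 6 rose and 5 fell at 10 FPKM. Leaving out single libraries gave 7 to 16 rises and 5 to 10 falls, and the median difference turned to −0.037 without NSE4 replicate 1 and −0.0041 without replicate 2 of NSE4 cells given doxorubicin (−0.037 to 0.15 over these fits). In SMC5 cells, 3 fell without a filter, 12 rose with the replicate block, alone or with GC adjustment, and 18 rose and 11 fell with the 12 columns as separate samples. There 17 rose (median difference 0.20) by the doxorubicin mean, 12 by the mean over all samples and 3 at 10 FPKM; leaving out single libraries gave 3 to 12 rises and 3 to 8 falls. The cause was not tested.

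Replicate numbers are shared between groups, but deviations of same-numbered samples correlated at −0.0385 to 0.0741 across loci, under the 0.1 taken as pairing. The block was therefore used only as an alternative. Such a correlation cannot register an offset common to all genes, so it does not settle whether the numbers mark a batch. The 98 genes were lower in replicate 1 than in replicate 2 in all 6 groups, by a median of −0.108 to −0.0443 (log2, replicate 1 minus 2). The block gave 30 rises and 21 falls in the 3-transfection average. Over all loci it gave 4831 rises and 4093 falls, against 4432 and 3740 without it. Of the genes named, differences near 0 changed sign with GC adjustment, with or without the block, to 0.0089 for ZNF330, 0.0096 for ZNF644, −0.045 for ZNF335, −0.083 for ZNF668 and 0.010 for ZNF830. Leaving out single libraries gave −0.013 to 0.11 for ZNF668 and −0.12 to 0.0056 for ZNF830. Some named genes that were not called gained a call among 21 alternatives: ZNF76 in 6, ZNF706 in 3, ZNF281 in 2, and ZNF217 and ZNF687 in 1 each. The comparisons of NSE4 or SMC5 with GFP cells and both interactions gave 0 called ZNF genes under all 22 alternatives tried for each. FPKM without read counts, and 1 or 2 samples per group, limit what could be detected.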
